A study of Homo sapiens with 8 samples.

Results

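Nascent RNA of 10 genes for transcription elongation factors was examined in 8 factory-seq libraries from the human colorectal cancer cell lines DLD-1 and HCT116. The genes were taken by symbol from both count tables, where all 10 were found among 18638 gene models. Factory-seq frees RNA held at sites of transcription in isolated nuclei, so reads over a whole gene model, introns included, were counted. The DLD-1 libraries came from DLD-1-mAID-mClover-POLR2A(Tet-OsTIR1) cells, which carry a tetracycline-driven gene for the plant protein OsTIR1. In these cells the largest RNA polymerase II subunit, RPB1, carries an auxin-inducible degron (mAID) and a fluorescent tag. They were either untreated or given doxycycline for 24 h and then 500 µM auxin for 14 h (n = 2 each). The HCT116 libraries came from untreated TOP2A-mAID cells and from cells labelled TOP2B-/- TOP2A-mAID (n = 2 each). All 4 groups thus carry a degron, on RPB1 in DLD-1 and on topoisomerase TOP2A in HCT116. Labels of the TOP2B-/- group conflict, since its titles read as control and its treatment field as 14 h of auxin. The library names in its sample descriptions also read as auxin. By the protocol such treatment is doxycycline for 24 h and then 500 µM auxin, so genotype, doxycycline and auxin cannot be told apart there. All titles name asynchronous cells, and the labels do not say whether untreated cells received doxycycline, whether a line is 1 clone or whether replicates were separate cultures. If they were not, the p-values measure technical spread only.

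After initiation, RNA polymerase II pauses close to the start site, held there by DSIF (SUPT4H1 and SUPT5H) and NELF. P-TEFb, the kinase CDK9 with cyclin T1 (CCNT1) or cyclin T2 (CCNT2), phosphorylates DSIF, NELF and the polymerase tail and so releases the pause. HEXIM1 holds P-TEFb inactive on the 7SK small nuclear RNA. AFF4 is the scaffold of the super elongation complex, which carries P-TEFb together with ELL2, a factor that speeds elongation. PAF1, the namesake of a multi-subunit complex, and the histone chaperone SPT6 (SUPT6H) travel with the elongating polymerase.

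Total counts ranged from 10739622 to 62626875 in DLD-1, with the smallest totals after auxin, and from 32129400 to 36491540 in HCT116. Levels are given as CPM, the usual unit of counts over library size, with TMM scaling within a cell line, which assumes that most genes keep their level. Reads over 3111 gene models silent in the other cell line gave a background density. Extended to all models, it made up 2.24 and 9.02% of control reads in DLD-1 and 39.5 and 59.5% of reads after auxin. In HCT116 this share lay between 0.266 and 3.04%. Epithelial markers EPCAM, CDH1, KRT8 and KRT18 were present in all libraries, whereas CDX1 lay under the background density in both lines and KRT20 and VIL1 were near 0 in HCT116. CDX2 (-3.51, adjusted p 0.0042) and KRT18 (-1.72, adjusted p 0.011) were called lower after auxin in DLD-1, and CDH1 (-0.69, adjusted p 0.026) was called lower in the libraries labelled TOP2B-/-. CDX1 was called higher after auxin in DLD-1 (2.85, adjusted p 0.048), at 0.471 and 0.885 times the background density in the auxin libraries. The summed level of 8 markers of fibroblasts, endothelium and leukocytes was 11.3 and 27.9 CPM in DLD-1 controls. After auxin it was 154.3 and 152.7 CPM, with 6 of 8 called higher, where 32.2% of all genes were. PECAM1 made up 97.6 and 72.5 CPM of the auxin sums, at 4.81 and 2.49 times background. DCN was at 1.39 and 1.16 times, and the other 6 lay between 0.316 and 0.895 times the background density in both auxin libraries. In HCT116 the summed level was 31.2 to 47.8 CPM with none of the 7 tested called. There COL1A1 made up 24.7 to 46.6 CPM, at 54.0 to 1110 times the background density. The part of these markers in the results below was not tested. Reads over the targeted genes POLR2A (-0.78, adjusted p 0.077) and TOP2A (-0.09, adjusted p 0.466) did not differ beyond the threshold in their own comparisons. POLR2A was called lower without control replicate 2 (-1.07, adjusted p 0.012) and with the replicate block (-0.78, adjusted p 0.0091), and it was 0.41, without a call, after background subtraction. TOP2B fell by 0.50 on the log2 scale (SE 0.041, adjusted p 0.027 in edgeR's quasi-likelihood test) in the libraries labelled TOP2B-/-, with most of its reads remaining. That call was lost with the replicate block (adjusted p 0.175), where 0 of all genes were called. It was also lost in a fit of all 8 libraries (adjusted p 0.626), where 5 of 17800 tested genes were called. The same held without TOP2B-/- replicate 1 or 2, where 1 library is left in that group and calls were lost across all genes. Log2 fold changes of TOP2B in these settings were -0.56 to -0.49.

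In control cells the genes differed in density of reads along the gene. Levels per kb are CPM divided by the counted length. In DLD-1 controls SUPT4H1 was highest, at 13.4 and 12.3 CPM per kb, followed by HEXIM1 at 10.7 and 10.5. PAF1 (7.37 ± 1.41), CDK9 (6.49 ± 0.919), SUPT6H (6.08 ± 1.21), CCNT1 (4.97 ± 0.400), SUPT5H (4.60 ± 1.18) and CCNT2 (4.46 ± 0.0883) followed in CPM per kb (mean ± SD, n = 2), and each of these overlapped the next in its replicate values. AFF4 (3.57 ± 0.0974) and ELL2 (0.639 ± 0.0713) were lowest and separate from each other. In HCT116 controls PAF1 was highest, at 8.11 and 9.32 CPM per kb. CDK9, CCNT1 and HEXIM1 followed with overlapping values of 5.44 to 7.14, and SUPT6H, SUPT5H, CCNT2, SUPT4H1 and AFF4 each stood apart from the next between 5.18 and 2.50. ELL2 was again lowest, at 1.33 and 1.25. The lines thus differed most in the place of SUPT4H1, first in DLD-1 and eighth in HCT116. As the lines were scaled and tabulated separately, no test was made between them.

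**Figure D1:**
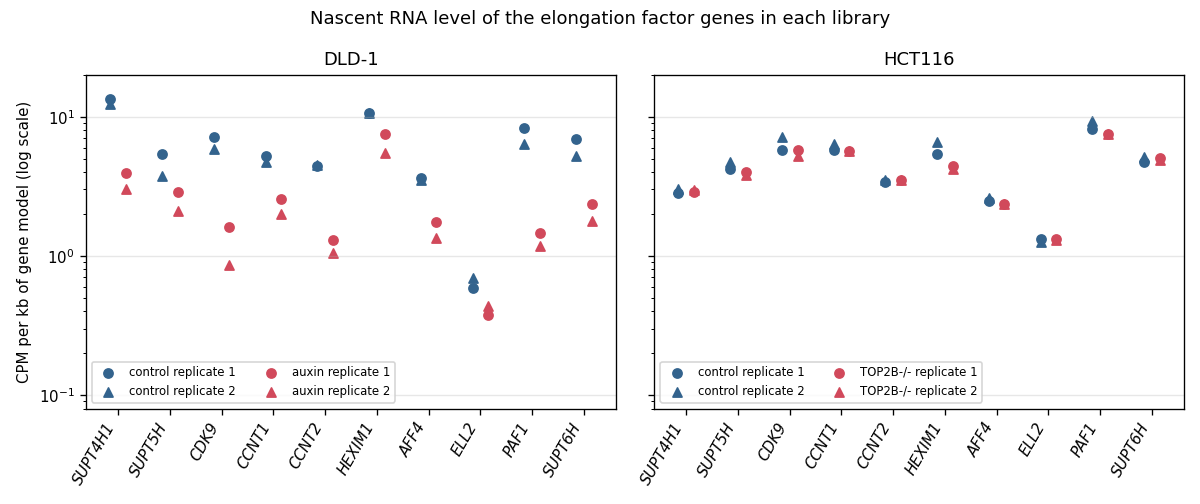
Level of each of the 10 genes in each of the 8 libraries, in CPM per kb of gene model on a log axis. Blue marks are controls, red marks are auxin (DLD-1) or TOP2B-/- (HCT116), circles are replicate 1 and triangles replicate 2. In DLD-1 the red marks lie below the blue ones for every gene, and in HCT116 blue and red marks lie close together.

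The DLD-1 comparison asks how nascent transcription differed after doxycycline and auxin, the treatment meant to deplete RPB1. The data used here hold no RPB1 protein level, so the extent of depletion is not known. Throughout, after auxin means after both compounds. If untreated cells had no doxycycline, its part cannot be told apart from that of auxin. All 10 genes were called lower after auxin by edgeR's quasi-likelihood test, with log2 fold changes from -2.49 to -0.66 and a median of -1.38. Of all 17625 genes tested, 35.0% were called lower and 32.2% higher (67.3% in either direction), and their median was -0.06. Without the silent models used for the background density, the median of tested genes was -0.44. Raw counts behind these values ran from 56 to 15601 reads per gene and library. The size of every fall is relative to the scaling. With library totals alone the median of all genes moved to 0.57, the members' median was -0.74, and 6 of the 10 were called lower, while 19.2% of all genes were called lower and 42.8% higher. After background subtraction 7 of the 10 were called lower and 1 higher, with a median of -0.61. Of all genes, 32.1% were then called lower and 27.7% higher, with a median of -0.16. Without auxin replicate 1 or without auxin replicate 2, 5 of the 10 were called lower, where 14.0 and 17.5% of all genes were. Without control replicate 1 or 2 it was 8 of the 10 (all genes 30.6 and 34.0%). It was 9 with DESeq2 (34.0%), 10 with a filter of at least 1 read (33.9%) or the replicate block (37.0%), 7 at a minimum mean CPM of 5 (33.2%) and 8 in a fit of all 8 libraries (33.4%). PAF1, CDK9, CCNT2, SUPT4H1 and AFF4 were called lower in all 11 alternatives to this fit.

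The DSIF genes fell unequally. SUPT4H1 (NM_003168, chromosome 17, 58345175 to 58352238, minus strand), the small zinc-finger subunit, had 94.6 and 86.8 CPM in the controls and 28.0 and 21.2 CPM after auxin. This was a log2 fold change of -1.88 (SE 0.21, adjusted p 0.0048 in edgeR's test), and 7.78% of all tested genes had a lower one. SUPT5H (NM_001130825, chromosome 19, 39445546 to 39476668, plus strand), the large subunit that contacts the polymerase, had 169.0 and 117.0 CPM in the controls and 89.8 and 65.1 CPM after auxin. The groups did not overlap for either gene, although the SUPT5H controls differed from each other by more than the auxin libraries did. The SUPT5H log2 fold change of -0.88 (SE 0.27, adjusted p 0.040) was called in 4 of the 11 alternatives, not for instance with library totals (-0.24) or without control replicate 1 (-0.59), and it was 0.22 after background subtraction, with an adjusted p of 0.311. The subtracted value of SUPT4H1 was -0.72 (SE 0.10, adjusted p 0.0097).

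A ratio of reads per kb between partner genes within a library does not depend on how libraries are scaled. The log2 ratio of SUPT4H1 to SUPT5H was 1.30 and 1.71 in the DLD-1 controls and 0.46 and 0.52 after auxin, a change of -1.01 that was -0.96 after background subtraction. SUPT4H1 therefore had 2.47 and 3.27 times the reads per kb of SUPT5H in the controls and 1.37 and 1.44 times after auxin. In HCT116 SUPT4H1 was the lower of the pair, with log2 ratios of -0.57 and -0.64 in the controls against -0.48 and -0.35 in the libraries labelled TOP2B-/-. With 2 libraries against 2, the smallest two-sided p of an exact permutation test is 0.333, so ratios are given by their values in each library. The pairs were chosen after their values had been seen.

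SUPT4H1 lies next to RNF43, which encodes a membrane ubiquitin ligase that limits Wnt receptors. The RNF43 model (chromosome 17, 58352500 to 58417582) is on the same strand and ends 261 bp upstream of SUPT4H1. In DLD-1 RNF43 had 26.0 and 23.1 CPM per kb in the controls and 0.742 and 0.547 after auxin (log2 fold change -5.25, SE 0.28, adjusted p 0.0042), and in HCT116 it had 1.88 to 2.14 CPM per kb. Both genes thus had higher levels per kb in DLD-1 controls than in any HCT116 library, and the part of RNF43 reads in the SUPT4H1 value was not tested. No gene model overlapped any of the 10 genes. Within 5 kb lay also TIMM50 downstream of SUPT5H, ACBD4 upstream of HEXIM1, LEAP2 downstream of AFF4, SAMD4B and MED29 beside PAF1, and PROCA1 and SDF2 beside SUPT6H. Of these, ACBD4 (-1.62, adjusted p 0.0078) and SAMD4B (-1.20, adjusted p 0.0067) were called lower after auxin and PROCA1 (1.32, adjusted p 0.032) higher. MED29, which starts 127 bp from PAF1 on the other strand, had a log2 fold change of -0.17 (adjusted p 0.671).

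All 3 genes of P-TEFb were called lower, and CCNT1 had the smallest log2 fold change of them. CDK9 (NM_001261, chromosome 9, 127786026 to 127790773, plus strand) had 33.9 and 27.8 CPM in the controls and 7.72 and 4.07 CPM after auxin, the latter from 133 and 56 reads. The CDK9 log2 fold change of -2.38 (SE 0.39, adjusted p 0.010) was low for the line, with 2.76% of tested genes lower still. CCNT2 (NM_001241, chromosome 2, 134918822 to 134959345, plus strand) had 178.0 and 183.1 CPM in the controls and 52.5 and 42.3 CPM after auxin. The fall was -1.93 on the log2 scale (SE 0.18, adjusted p 0.0042). CCNT1 (NM_001240, chromosome 12, 48688458 to 48716998, minus strand), the partner of most P-TEFb, had 150.1 and 133.9 CPM in the controls and 72.7 and 56.8 CPM after auxin. Auxin libraries lay below the controls for each of these genes. The CCNT1 log2 fold change of -1.13 (SE 0.20, adjusted p 0.012) was not called with library totals (-0.50, adjusted p 0.055), without auxin replicate 1 (adjusted p 0.051) or 2 (adjusted p 0.055), or after background subtraction (-0.05, adjusted p 0.655). CDK9 and CCNT2 were -1.63 and -1.13 after that subtraction, with adjusted p of 0.032 and 0.0034.

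Within libraries, the cyclins moved apart. CCNT2 had 0.835 and 0.963 times the reads per kb of CCNT1 in DLD-1 controls and 0.508 and 0.525 times after auxin. The log2 ratio changed by -0.80, and by -1.08 after background subtraction. The log2 ratio of CDK9 to CCNT1 went from 0.44 and 0.32 in the controls to -0.65 and -1.21 after auxin. In HCT116 the ratio of CCNT2 to CCNT1 was 0.591 and 0.553 in the controls against 0.624 and 0.617 in the libraries labelled TOP2B-/-.

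The promoter sequences of the DSIF and P-TEFb genes are shown because these partner genes fell by different amounts. Each is the 250 bases before the RefSeq start site (GRCh38.p14), written 5′ to 3′ on the strand of the gene. Capitals mark matches to the GC box (GGGCGG), to the core bound by ETS factors (CCGGAAG) and to the box whose name is its letters, CCAAT, each searched on both strands.
SUPT4H1 (chr17:58352202-58352451, minus strand): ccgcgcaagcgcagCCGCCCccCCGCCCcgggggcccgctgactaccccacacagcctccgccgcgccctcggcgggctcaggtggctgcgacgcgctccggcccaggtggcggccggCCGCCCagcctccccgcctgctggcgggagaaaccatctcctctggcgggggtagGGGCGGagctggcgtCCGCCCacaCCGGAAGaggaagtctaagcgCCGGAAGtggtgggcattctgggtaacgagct
SUPT5H (chr19:39445332-39445581, plus strand): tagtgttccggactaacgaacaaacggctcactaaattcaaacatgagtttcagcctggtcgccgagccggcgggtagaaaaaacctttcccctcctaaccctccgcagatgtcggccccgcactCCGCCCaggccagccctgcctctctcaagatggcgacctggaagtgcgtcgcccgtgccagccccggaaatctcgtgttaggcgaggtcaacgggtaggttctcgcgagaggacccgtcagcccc
CDK9 (chr9:127785784-127786033, plus strand): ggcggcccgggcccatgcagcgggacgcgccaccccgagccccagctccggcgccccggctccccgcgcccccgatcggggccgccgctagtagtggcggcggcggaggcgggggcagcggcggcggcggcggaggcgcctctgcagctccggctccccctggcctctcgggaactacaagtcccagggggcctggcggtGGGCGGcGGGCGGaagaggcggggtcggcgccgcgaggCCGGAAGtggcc
CCNT1 (chr12:48716708-48716957, minus strand): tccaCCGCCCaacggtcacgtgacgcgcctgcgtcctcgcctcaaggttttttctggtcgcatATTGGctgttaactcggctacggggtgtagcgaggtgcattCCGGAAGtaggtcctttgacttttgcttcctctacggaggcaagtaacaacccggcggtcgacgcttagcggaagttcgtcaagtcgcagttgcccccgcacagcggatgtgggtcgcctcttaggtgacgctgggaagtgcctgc
CCNT2 (chr2:134918572-134918821, plus strand): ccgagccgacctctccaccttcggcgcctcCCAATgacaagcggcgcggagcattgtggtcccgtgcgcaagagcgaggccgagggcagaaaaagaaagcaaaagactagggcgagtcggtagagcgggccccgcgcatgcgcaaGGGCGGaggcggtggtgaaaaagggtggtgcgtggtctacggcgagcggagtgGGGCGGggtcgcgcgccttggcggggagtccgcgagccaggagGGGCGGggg

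Among all 35116 promoter windows of the same length, 42.6% held a GC box, 32.0% a CCAAT box, 8.5% an ETS core and 10.7% a TATA box (TATAAA). All 5 windows above held at least 1 GC box, with 5 in SUPT4H1, 3 in CCNT2, 2 in CDK9 and 1 each in SUPT5H and CCNT1. The ETS core was found in SUPT4H1, CDK9 and CCNT1, and the CCAAT box in CCNT1 and CCNT2. No TATA box was found in these 5 windows. All but 37 bases of the SUPT4H1 window lie in the gap between the deposited models of SUPT4H1 and RNF43. GC content was 75.2% in SUPT4H1 and 60.8% in SUPT5H, and it was 82.0% in CDK9, 69.6% in CCNT2 and 59.2% in CCNT1. The deposited model of CCNT1 starts 291 bp upstream of this RefSeq start site, and those of the other 4 genes start within 37 bp of theirs. HEXIM1, AFF4, PAF1 and SUPT6H also had a window in this table, with GC contents of 62.4, 75.2, 58.0 and 56.0%. The RefSeq start site of HEXIM1 lies 1158 bp from the start of its deposited model, and its window held 1 TATA box. Those of AFF4, PAF1 and SUPT6H lie within 89 bp. Over the 9 windows, PAF1, the lowest in fold change, had the second lowest GC content, and CDK9, the next lowest in fold change, had the highest. A relation of GC content to the fold changes was not tested.

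HEXIM1 (NM_006460, chromosome 17, 45147317 to 45152101, plus strand), the P-TEFb inhibitor, had the highest level per kb of the 10 after auxin. It had 51.1 and 50.5 CPM in the controls and 36.0 and 26.5 CPM after auxin. The auxin values were lower without overlap but spread more widely than the controls. Its log2 fold change of -0.70 (SE 0.22, adjusted p 0.042) was called lower in 3 of the 11 alternatives and turned to 0.54 (SE 0.12, adjusted p 0.025) after background subtraction, which was a call in the opposite direction. With library totals it was -0.07 (adjusted p 0.785). The ratio to CDK9 did not share this dependence. HEXIM1 had 1.49 and 1.80 times the reads per kb of CDK9 in the controls and 4.63 and 6.45 times after auxin, a rise of 1.74 on the log2 scale and of 2.25 after background subtraction. In HCT116 HEXIM1 had 0.941 and 0.929 times the reads per kb of CDK9 in the controls against 0.766 and 0.807 times in the libraries labelled TOP2B-/-.

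The genes of the super elongation complex stood far apart in level. AFF4 (NM_014423, chromosome 5, 132875379 to 132963662, minus strand) had 321.1 and 309.0 CPM in the controls and 154.8 and 118.4 CPM after auxin. The AFF4 log2 fold change of -1.21 (SE 0.20, adjusted p 0.011) was -0.25 (SE 0.069, adjusted p 0.041) after background subtraction. ELL2 (NM_012081, chromosome 5, 95885098 to 95962071, minus strand) had 45.3 and 53.1 CPM in the controls and 28.7 and 33.5 CPM after auxin. Its reads in the auxin libraries were close to background, at 1.31 and 1.07 times the density over silent genes, whose upper quartiles were 1.25 and 1.20. In the controls ELL2 had 23.3 and 7.24 times that density. The ELL2 log2 fold change of -0.66 (SE 0.20, adjusted p 0.037), called in 5 of the 11 alternatives, was -0.02 with library totals (adjusted p 0.931) and -2.08 (SE 0.39, adjusted p 0.018) after background subtraction. As few reads were left above background, the size of the last value is uncertain. The log2 ratio of AFF4 to ELL2 changed by -0.56 from controls to auxin and by 1.93 after background subtraction, so its direction was set by the treatment of background.

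PAF1 and SUPT6H were both lower after auxin. PAF1 (NM_001256826, chromosome 19, 39385630 to 39391195, minus strand) had 46.5 and 35.5 CPM in the controls and 8.07 and 6.54 CPM after auxin. Its log2 fold change of -2.49 (SE 0.27, adjusted p 0.0046) was the lowest of the 10, and 2.21% of all tested genes had a lower one. It was -1.61 (SE 0.19, adjusted p 0.0062) after background subtraction. SUPT6H (NM_003170, chromosome 17, 28662284 to 28702231, plus strand) had 277.0 and 208.4 CPM in the controls and 93.8 and 71.1 CPM after auxin. The groups of each gene were separate. The SUPT6H log2 fold change of -1.56 (SE 0.24, adjusted p 0.0093) was -0.50 (SE 0.13, adjusted p 0.037) after background subtraction, and it was not called without auxin replicate 1 or 2 (adjusted p 0.062 and 0.067).

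Size of the falls was also set beside gene length. Of the 4 genes with counted lengths of 4748 to 7064 bp, PAF1, CDK9 and SUPT4H1 had 3 of the 4 lowest log2 fold changes and HEXIM1 had the second highest. CCNT2, with 40524 bp, was the other gene among the lowest. In the auxin libraries 9 of the 10 genes had at least 2.11 times the background density in each library, ELL2 being the exception.

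**Figure D2:**
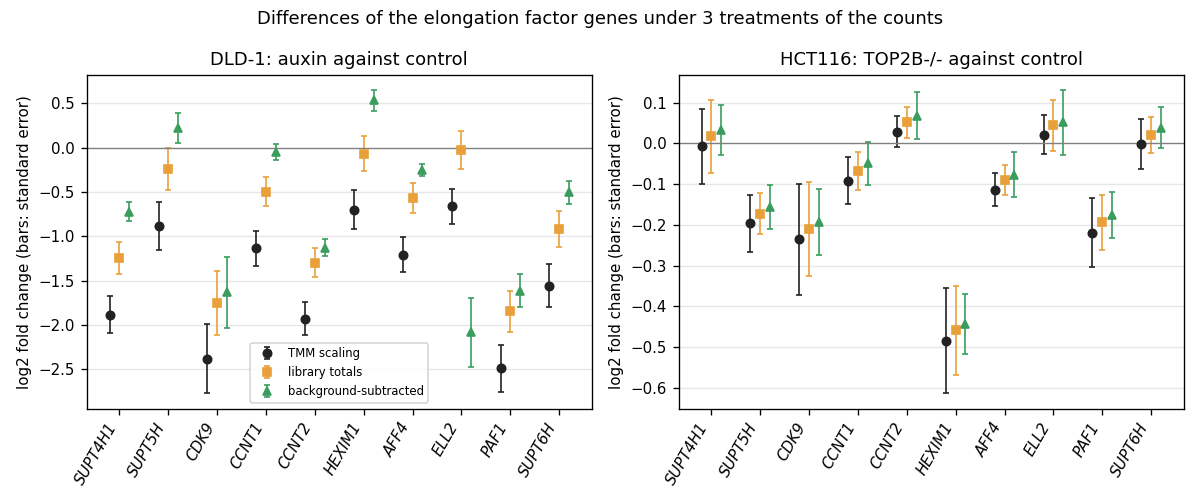
Log2 fold change of each of the 10 genes with its standard error, for DLD-1 (auxin against control) and HCT116 (TOP2B-/- against control), on axes of different range. Black circles use TMM scaling, orange squares library totals and green triangles background-subtracted counts. In DLD-1 SUPT5H and HEXIM1 cross 0 after background subtraction while ELL2 drops to -2.08, and in HCT116 the 3 treatments nearly coincide.

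**Figure D3:**
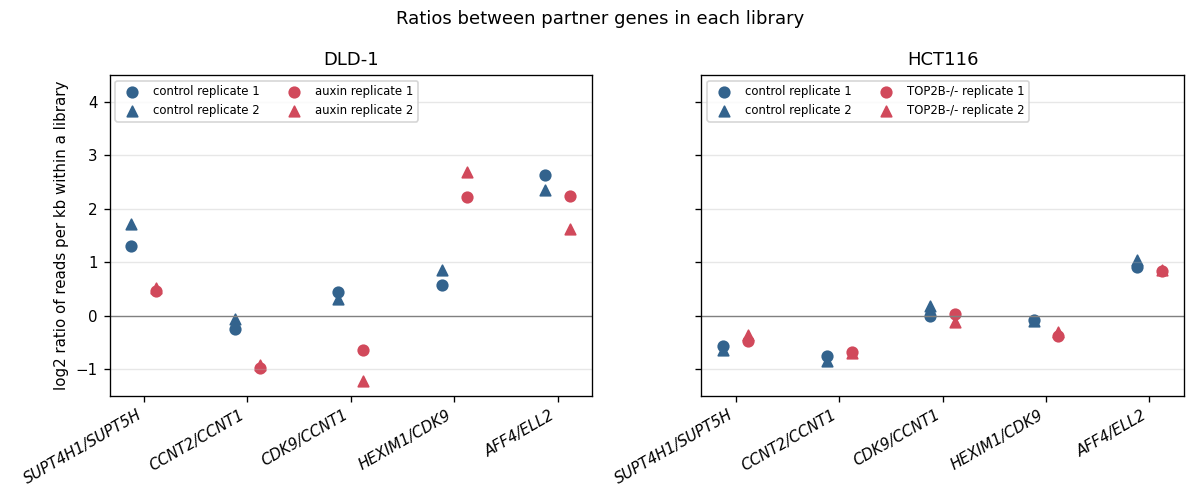
Log2 ratio of reads per kb between 2 genes within each library, for 5 pairs in DLD-1 and HCT116. Blue marks are controls, red marks are auxin or TOP2B-/-, circles are replicate 1 and triangles replicate 2. In DLD-1 the ratios of SUPT4H1 to SUPT5H, CCNT2 to CCNT1 and CDK9 to CCNT1 are lower after auxin and that of HEXIM1 to CDK9 is higher.

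In HCT116, the comparison asks which nascent transcripts differed in cells labelled TOP2B-/-, with TOP2A tagged in both groups. Of the 10 genes, 0 were called by edgeR, where 3.41% of 15273 tested genes were called. At an unadjusted p under 0.05 there were 3 (HEXIM1, AFF4 and SUPT5H), where 22.9% of all genes were, and DESeq2 called the same 3 lower, while calling 11.9% of all genes lower. Log2 fold changes ran from -0.48 to 0.03 with a median of -0.10, against 0.03 for all tested genes. A p above the threshold does not show equal levels. Standard errors of the 10 log2 fold changes were between 0.038 and 0.14.

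HEXIM1 had the lowest log2 fold change of the 10 in HCT116. It had 26.0 and 31.7 CPM in the controls against 21.1 and 20.2 CPM in the libraries labelled TOP2B-/-, from 662 to 1126 reads. The groups did not overlap, and the controls were further apart than the TOP2B-/- libraries. Its log2 fold change was -0.48 (SE 0.13, edgeR adjusted p 0.140), and 7.33% of all tested genes had a lower one. It was called lower by DESeq2 (adjusted p 0.0023), after background subtraction (-0.44, adjusted p 0.020, with 8.36% of all genes called lower) and without control replicate 1 (-0.62, adjusted p 0.040, with 6.13%). Without control replicate 2 it was -0.36 (adjusted p 0.308).

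Among the other 9 genes, CDK9 had 27.4 and 33.9 CPM in the controls against 27.3 and 24.8 CPM in the libraries labelled TOP2B-/-, with a log2 fold change of -0.24 (SE 0.14, adjusted p 0.393). PAF1 had 45.2 and 51.9 CPM in the controls against 41.6 and 41.8 CPM, with -0.22 (SE 0.084, adjusted p 0.238), and was called without control replicate 1 (-0.32, adjusted p 0.0496). SUPT5H had 131.8 and 147.0 CPM in the controls against 124.3 and 119.1 CPM, with -0.20 (SE 0.070, adjusted p 0.216). For PAF1, SUPT5H and CDK9 the library labelled control 2 was the highest of the 4. AFF4 was at -0.11 (SE 0.040, adjusted p 0.210) and CCNT1 at -0.09 (SE 0.058, adjusted p 0.435). SUPT4H1, SUPT6H, ELL2 and CCNT2 were between -0.01 and 0.03, with adjusted p from 0.680 to 0.984. All 10 genes had at least 50.2 times the background density in every HCT116 library.

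The wider elongation machinery was read from a list of 35 further genes for NELF, 7SK regulators, the super and little elongation complexes, the PAF1 complex, chaperones, TFIIS, elongin and kinases of the polymerase tail. In DLD-1, 34 of the 35 (all but TCEA3) were tested and 25 were called, 23 lower and 2 higher after auxin (all genes 35.0% lower and 32.2% higher), with a median log2 fold change of -1.13. By group, 4 of 4 tail kinase and SETD2 genes, 2 of 2 little elongation complex genes, 3 of 4 NELF genes and 3 of 5 PAF1 complex genes were called lower. Calls in the lower direction were also made among the super elongation complex genes (4 of 7, with 1 higher), the tested TFIIS and elongin genes (3 of 5, with 1 higher) and the histone chaperone genes (1 of 3). The remaining lower calls were in the group of 7SK regulators, whose counts are not reported here. With library totals 13 were called lower and 3 higher (all genes 19.2% and 42.8%). After background subtraction 14 of 33 tested were called lower and 5 higher (all genes 32.1% and 27.7%).

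The largest fall was that of MLLT3, a reader of acylated histones in the super elongation complex, from 2054 and 1832 CPM to 177.9 and 154.1 CPM, with a log2 fold change of -3.55 (SE 0.23, adjusted p 0.0042). Other large falls were those of LARP7 (-2.28), which stabilises 7SK RNA, the tail kinase CDK13 (-2.17), the SPT6 partner IWS1 (-2.16), the histone methyltransferase SETD2 (-2.12) and the scaffold AFF1 (-2.00). Each of these 6 genes had an edgeR adjusted p of 0.0042. After background subtraction they stayed between -3.57 and -1.54, all called. Their auxin values were near background in places, for instance 2.23 and 1.35 times the background density for MLLT3.

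The genes called higher were TCEA2 (2.91, adjusted p 0.023), a TFIIS gene, and EAF2 (1.52, adjusted p 0.019), an ELL partner named although it was outside the rule for named genes. TCEA2 had 0.608 to 0.870 times the background density in all 4 DLD-1 libraries. EAF2 had 5.84 and 2.51 times in the controls and 1.83 and 1.44 times after auxin. Neither rise was called without auxin replicate 1 or 2, where 1 auxin library is left and few of all genes were called higher. After background subtraction EAF2 was called higher (1.95, adjusted p 0.0086) and TCEA2 was not tested. SSRP1, a subunit of the histone chaperone FACT singled out after its values were seen, had 149.1 and 112.5 CPM in the controls and 181.5 and 132.4 CPM after auxin. Its log2 fold change of 0.26 (adjusted p 0.373) became 1.55 (adjusted p 0.0035) after background subtraction. SSRP1 was 1 of the 5 further elongation genes called higher after that subtraction. SUPT16H, of the same chaperone group and also outside the rule for named genes, was another. Its log2 fold change was -0.53 (adjusted p 0.113) before subtraction and 0.71 (adjusted p 0.015) after it.

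In HCT116, 35 genes of this list were tested and 3 were called by edgeR, beside the 3.41% of all tested genes, with a median log2 fold change of -0.05. NELFCD, a NELF subunit gene, had 106.8 and 120.7 CPM in the controls against 67.3 and 62.6 CPM in the libraries labelled TOP2B-/-, with a log2 fold change of -0.81 (SE 0.083, adjusted p 0.034). It lies on chromosome 20, where 405 tested genes had a median of -0.56, against 0.04 elsewhere. CDC73, a subunit gene of the PAF1 complex, rose from 408.4 and 386.0 CPM to 534.0 and 532.4 CPM, with a log2 fold change of 0.42 (SE 0.045, adjusted p 0.035). ELOA, the gene of elongin A, fell from 68.6 and 67.9 to 54.4 and 54.4 CPM, with a log2 fold change of -0.33 (SE 0.040, adjusted p 0.042). None of these 3 was called without TOP2B-/- replicate 1 or 2, where 1 library is left in that group and calls were lost across all genes. Without control replicate 2 NELFCD alone was called (adjusted p 0.0096).

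**Figure D4:**
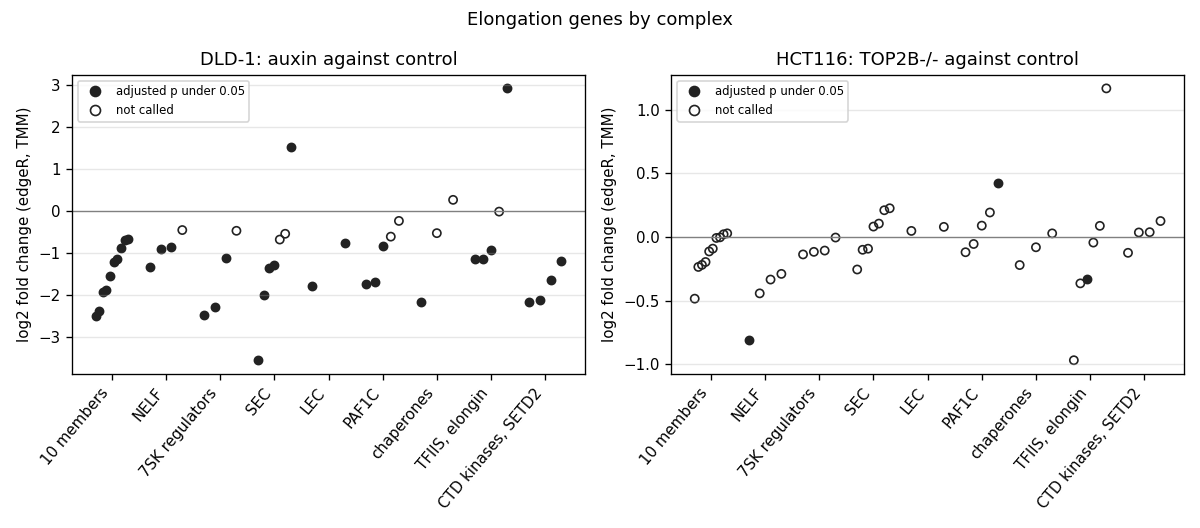
Log2 fold change of the 10 genes and of 35 further elongation genes by complex (SEC, super elongation complex; LEC, little elongation complex; PAF1C, PAF1 complex), in DLD-1 and HCT116 on axes of different range. Each point is 1 gene, filled where the edgeR adjusted p was under 0.05. In DLD-1 most points are filled and below 0, and in HCT116 3 points are filled.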

How the data were processed

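The authors deposited raw read counts per RefSeq gene model in 2 tables, DLD-1 and HCT116. Per the labels' processing notes, STAR, DESeq2 and the build hg38 were used. Versions, counting settings and strand use were not given in the sources used here, so reads of neighbouring genes could be shared. Start positions were found to count from 0 and are printed from 1. The authors' tables of changed genes hold log2 fold changes, p-values and normalized values and were not used. The paper supplied describes another experiment, so no design was taken from it.

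Each comparison was fitted to its own 4 libraries with edgeR 4.0.16 (quasi-likelihood test, filterByExpr, TMM, R 4.3.3), leaving 2 residual degrees of freedom. Tests were two-sided with Benjamini-Hochberg adjustment over all genes tested at 0.05, and standard errors came from the F statistic. All adjusted p are edgeR's unless DESeq2 (1.42.0) is named. The script was tested on simulated counts with few changed genes, equal numbers up and down, and the same background in both groups. The DLD-1 data differ from that setting, so the simulation does not test the scaling there. Alternatives left out each library, assuming the lone sample varies like the other group, or changed scaling, filter, tool, block, samples or background. Background density was the median count per base over the 20% of models of at least 5000 bp with the fewest reads per kb in controls of the other line, ranked within chromosomes without chromosome Y. It was subtracted with a floor of 0, which a count model does not fully allow for.

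Members and lists were chosen with earlier results of these data known. Named were the 10 genes, the targeted genes, models within 5 kb, and up to 8 called genes of the wider list with the largest absolute log2 fold change, 1 of which is not reported here. Older symbols TCEB1, TCEB2 and TCEB3 stood for ELOC, ELOB and ELOA. Promoters are from RefSeq.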

Additional observations from a re-analysis of the deposited data

How the results depend on the processing

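The number of the 10 genes called in DLD-1, 10 of 10, was 6 with library totals and ranged from 5 to 8 when a library was left out. It was between 7 and 10 under DESeq2, other count filters, the replicate number as a block, a fit of all 8 libraries and background subtraction. Of the 8 called after background subtraction, 7 were lower and 1 was higher. Shares of all genes called lower in these settings are given with the DLD-1 results. The number of further elongation genes called there, 25, was 16 with library totals and 12 to 24 when a library was left out. All genes called in DLD-1 numbered 2554 to 12754 when a library was left out, lowest without auxin replicate 1, against 11855. After background subtraction the log2 fold changes of SUPT5H (0.22) and HEXIM1 (0.54) had the opposite sign, and the change of the log2 ratio of AFF4 to ELL2 was 1.93.

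In HCT116, 521 genes were called by the quasi-likelihood test. This number was 3295 with DESeq2, 1221 with a mean CPM of at least 5, 5 in a fit of all 8 libraries, 2289 after background subtraction, and 0 to 1783 when a library was left out, with 0 without either TOP2B-/- library (2224 and 1282 at an unadjusted p under 0.05). Of the 10 genes, 3 were called by DESeq2, 1 after background subtraction and 0 to 2 when a library was left out. Of the further elongation genes, 9 were called by DESeq2, 0 in the fit of all 8 libraries and 0 to 6 when a library was left out, against 3. Signs of values near 0 turned. SUPT4H1 was 0.017 with library totals, 1.2e-05 with the filter at a mean CPM of 5 and 0.033 after background subtraction, and SUPT6H was 0.022, 0.0052 and 0.039 in the same order. When a library was left out SUPT4H1 lay between -0.051 and 0.0071, SUPT6H between -0.068 and 0.034, CCNT2 between -0.011 and 0.033 and ELL2 between -0.050 and 0.064. The cause of these differences was not tested.

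With the replicate number as a block, 10 of the 10 genes and 12963 of all genes were called in DLD-1, where same-numbered libraries deviated together across genes (correlation 0.56). In HCT116 the correlation was -0.82 and the block called 0 genes, 0 of the 10 and 0 of the further elongation genes (2177 of all genes at an unadjusted p under 0.05). As the labels tie no replicate numbers to a shared culture, these numbers are not taken as pairs. With crossed replicate numbers in HCT116, a setting chosen after seeing the data, the block called 1808 genes, 0 of the 10 and 7 of the further elongation genes.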
